A study of Mus musculus with 9 samples.

Results

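The 10 genes described here encode plasma membrane amino acid transporters: Slc3a2, Slc7a5, Slc7a11, Slc7a1, Slc7a3, Slc1a4, Slc1a5, Slc38a2, Slc6a9 and Slc43a1. They were taken as a list of gene symbols, each matched to 1 of the 48440 genes in the count tables, and all 10 were among the 20838 genes with enough counts to be tested. Polyadenylated RNA was sequenced from J1 mouse embryonic stem cells of the genotype Suz12-AID, in which Suz12, a core subunit of the histone methyltransferase complex PRC2, carries a degron tag that destroys the protein when auxin is present. The 9 libraries were 3 Mock, 3 Auxin (indole-3-acetic acid at 50 µM for 96 h) and 3 Reintroduction (auxin washed out for 4.5 h), described as biological replicates. All groups, the Mock controls included, carried the Suz12-AID genotype and grew on gelatin in serum medium with LIF, the inhibitors PD0325901 and CHIR99021, glutamine and non-essential amino acids. The labels do not say how many clones were used, and no cells without the degron were given auxin, so an effect of the compound and one of Suz12 depletion cannot be told apart.

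Amino acids cross the cell membrane through solute carriers, grouped into families by sequence. Slc3a2 encodes the heavy chain 4F2hc, which binds light chains such as LAT1 (Slc7a5), the exchanger of large neutral amino acids, and xCT (Slc7a11), the cystine and glutamate exchanger, and brings them to the membrane. Slc7a1 and Slc7a3 encode transporters of the cationic amino acids arginine, lysine and ornithine. Slc1a4 and Slc1a5 encode the exchangers ASCT1 and ASCT2 of small neutral amino acids and glutamine, Slc38a2 the sodium-coupled carrier SNAT2, Slc6a9 the glycine transporter GlyT1, and Slc43a1 the facilitative carrier LAT3. Several of these genes are known targets of ATF4, the transcription factor of the integrated stress response, which is translated when amino acids are scarce or the endoplasmic reticulum is stressed and which binds C/EBP-ATF response elements.

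Library totals ran from 44341283 to 113931419 counts, with both mates of a pair counted separately. Across genes, log2 values of libraries of 1 group correlated at 0.989 to 0.995, and those of libraries of different groups at 0.936 to 0.977. The libraries differed in how their values followed exon length: per doubling of length, log2 values changed by -0.246 to -0.168 in Mock, by 0.013 to 0.154 in Auxin (lowest in replicate 2) and by 0.083 to 0.097 in Reintroduction. This bears on Slc7a11 and Slc7a1, whose exons sum to 13922 and 11530 bp, against 3529 to 5716 bp for the other 8 genes. All 10 embryonic stem cell markers were detected, with summed levels of 6186 to 6367 CPM (normalised read count, scaled to the library total times its TMM factor) in Mock, 7625 to 8182 in Auxin and 5956 to 6024 in Reintroduction. Of these 10 markers, Auxin against Mock called 7 higher and 3 lower. The 3 lower ones were Pou5f1 (844 to 583 CPM), Dppa5a (411 to 184) and Utf1 (111 to 54). All 6 primitive endoderm markers were called higher in Auxin than in Mock, beside 38.4% of all genes tested. They summed to 5.6 to 7.27 CPM in Mock, 21.4 to 22.3 in Auxin and 13.9 to 15.6 in Reintroduction. In the same order, the 5 trophoblast markers summed to 62.5 to 65.6, 107 to 118 and 109 to 115. Trophoblast markers went in both directions in Auxin against Mock: Tfap2c (27.2 to 86.6 CPM) and Gata3 were called higher, and Cdx2 (1.7 to 0.0825) and Eomes (35.4 to 25.6) lower. The 5 neural or mesoderm markers summed to 11.7 to 12.6, 1.9 to 2.28 and 3.53 to 3.87, most of it the mesoderm gene T in Mock (9.82 CPM, against 0.255 in Auxin and 1.36 in Reintroduction). In Auxin against Mock, T and Pax6 (0.491 to 0.287 CPM) were called lower, while Sox1 and Tbx6 were not called. Fibroblast markers, most of the sum from Thy1, summed to 22 to 24.6, 44.2 to 53.5 and 41 to 42.3. In Auxin against Mock, Thy1 (17.9 to 41.2 CPM) and Pdgfrb (4.4 to 6) were called higher and Col1a1 (0.418 to 0.152) lower. Col1a2 was not called, and the fibroblast genes Postn, Lum and Dcn had at most 6 counts in any group. The part of these markers and of the length trend in the results below was not tested beyond the values given.

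Of the 10 transporter genes, 9 were higher in Auxin than in Mock and the same 9 were then lower in Reintroduction than in Auxin, while Slc43a1 passed neither test (edgeR quasi-likelihood, adjusted p under 0.05 over all genes). Both comparisons use the Auxin libraries. Auxin against Mock called 73.2% of all genes tested, 38.4% higher and 34.8% lower, and Reintroduction against Auxin called 50.9%, with 25.5% in each direction. The ranges of the 3 libraries of each group did not overlap in the same 9 genes, higher in Auxin than in Mock (38.4% of all genes) and lower in Reintroduction than in Auxin (29.4% of all genes). With a fold of at least 2 besides, 6 of the 10 genes were called higher in Auxin, against 19.8% of all genes, and 7 were called lower after washout, against 6.82%. The median log2 fold change of the 10 genes was 1.04 in Auxin against Mock, where that of all genes was 0.05, and -1.51 in Reintroduction against Auxin, where that of all genes was 0.00. The 10 genes were chosen with earlier results of these data known, so these counts and medians are descriptions and not a test against all genes. In Reintroduction against Mock, where 68.1% of all genes were called, Slc7a1 and Slc6a9 were higher and 6 genes were lower, beside 34.7% and 33.4% of all genes. The median of the 10 was -0.40 and that of all genes 0.03. Ranges did not overlap for 2 higher and 7 lower genes (38.2% and 37.0% of all genes), and the 2 with a fold of at least 2, Slc7a11 and Slc1a4, were both lower (7.43% of all genes). Together the 10 genes had 1032 to 1053 CPM per library in Mock, 2056 to 2179 in Auxin and 862 to 886 in Reintroduction. In bulk RNA, a change in the number of cells of a type and a change in RNA per cell cannot be told apart.

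**Figure D1:**
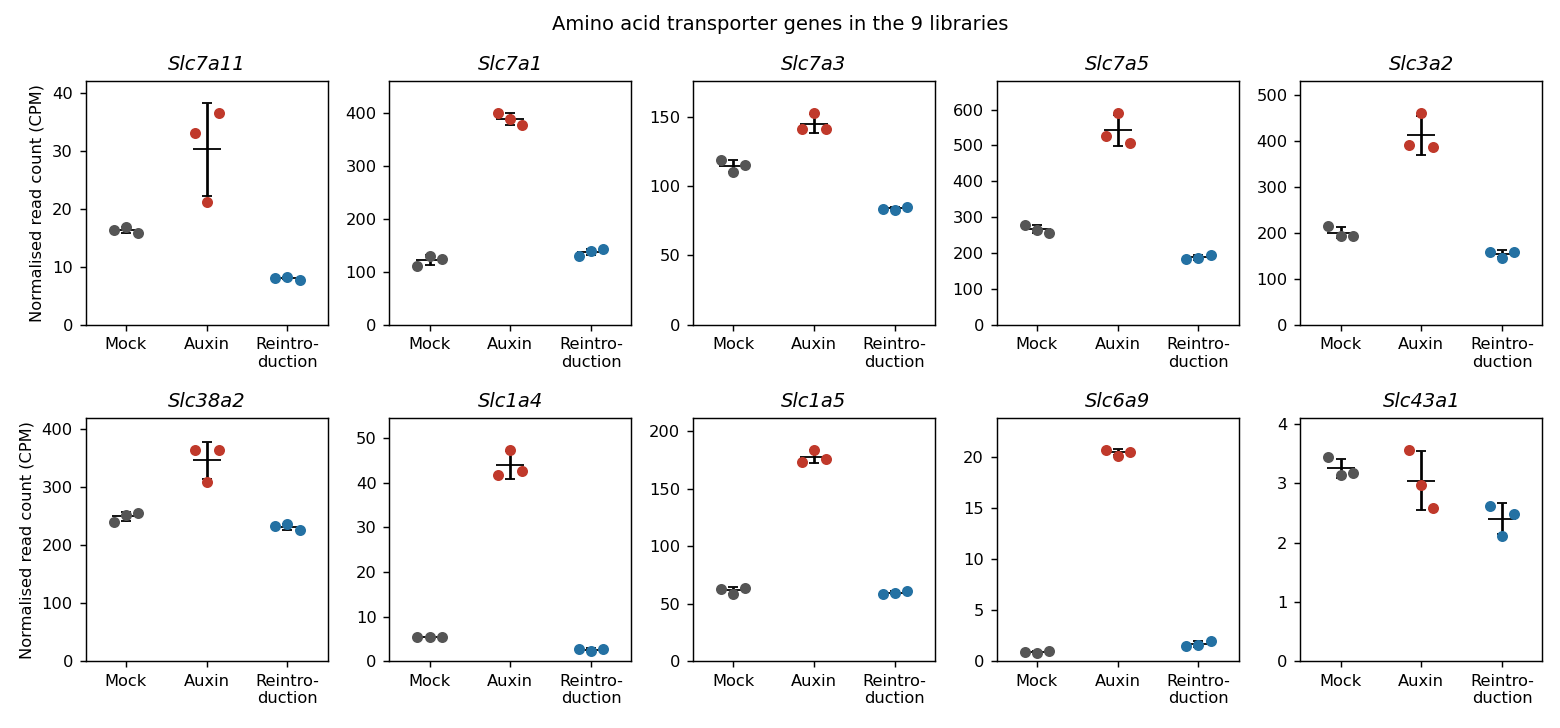
Normalised read counts (CPM, linear axes starting at 0) of the 10 transporter genes in each of the 9 libraries, one panel per gene, with points for libraries and bars for mean ± SD (n = 3). In 9 panels the 3 Auxin points lie above all Mock and Reintroduction points, and Slc43a1 is the exception.

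Slc3a2 (ENSMUSG00000010095.13; mm10 chromosome 19, 8706882 to 8723369) encodes the heavy chain shared by LAT1 and xCT. Mock replicates 1 to 3 had 214, 192 and 194 CPM, Auxin replicates 389.9, 461 and 386, and Reintroduction replicates 159, 145 and 159. The 3 groups did not overlap, Auxin being highest and Reintroduction lowest. Its log2 fold change was 1.05 in Auxin against Mock (SE 0.08, edgeR adjusted p = 3.02e-07) and -1.41 after washout (SE 0.08, adjusted p = 1.39e-07). Reintroduction ended below Mock at -0.37 (SE 0.08, adjusted p = 0.00148), which shrank to -0.13 and stayed called when trends of length and GC content were removed from each library.

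Slc7a5 (ENSMUSG00000040010.10; chromosome 8, 121881150 to 121907694), the LAT1 light chain, followed the heavy chain closely. It had 278, 263 and 257 CPM in Mock, 527, 591 and 508 in Auxin, then 183, 185 and 195 in Reintroduction, with no overlap between groups. In both genes Auxin replicate 2 was the highest library. The rise in Auxin was 1.03 in log2 (SE 0.07, adjusted p = 8.00e-08) and the change after washout -1.53 (SE 0.07, adjusted p = 2.01e-08). Against Mock, Reintroduction stood at -0.50 (SE 0.06, adjusted p = 3.99e-05), or -0.27 with length and GC trends removed, still called.

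Slc7a11 (ENSMUSG00000027737.10; chromosome 3, 49892526 to 50443614) encodes xCT, which imports cystine for glutathione synthesis. The libraries had 16.3, 16.8 and 15.8 CPM in Mock, 33.1, 21.2 and 36.6 in Auxin, then 8.14, 8.18 and 7.79 in Reintroduction. Groups did not overlap, but Auxin replicate 2 lay well below the other Auxin libraries, the reverse of its place in Slc3a2 and Slc7a5. The change in Auxin was 0.89 (SE 0.15, adjusted p = 2.79e-04). Leaving out Auxin replicate 2 gave 1.09, and removing length and GC trends gave 0.21 (adjusted p = 0.0214), so the size of the rise depended on the treatment of gene length. The change after washout was -1.92 (SE 0.16, adjusted p = 2.99e-06), and -2.05 with the trends removed. It ended below Mock at -1.02 (SE 0.16, adjusted p = 1.83e-04), or at -1.83 with the trends removed.

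Promoter sequences were examined for the C/EBP-ATF response element, the known binding site of ATF4. Whether ATF4 acted on these genes here was not tested. RefSeq windows (GRCm38.p6, the mm10 assembly) of 300 bases, from 250 before to 50 after a transcript start, were at hand for 7 of the 10 genes and numbered 10 in all. Slc7a11 and Slc1a4 were the 2 of these genes whose windows held the element's core TGATGNAA on either strand, and in both it read TGATGCAA. The stretches around the matches are shown 5′ to 3′ on the gene's strand with the matches in capitals, where TTGCATCA is TGATGCAA on the opposite strand. That of Slc7a11 covers chr3:50443614-50443713 and that of Slc1a4 chr11:20332710-20332809, both on the minus strand.
Slc7a11: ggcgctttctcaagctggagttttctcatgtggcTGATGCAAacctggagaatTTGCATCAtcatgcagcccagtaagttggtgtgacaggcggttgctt
Slc1a4: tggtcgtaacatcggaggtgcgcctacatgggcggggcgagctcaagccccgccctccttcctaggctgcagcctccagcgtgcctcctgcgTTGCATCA
With the start base counted as 0, Slc7a11 had a match on its own strand from -66 to -59 and one on the other strand from -47 to -40. The Slc1a4 match, on the other strand, ran from -4 to 3, across the start itself. Over the 32851 windows of all genes used, 3.97% held TGATGNAA and 0.895% held TGATGCAA. Counted by gene, 4.51% and 1.03% of 27025 genes had a window with these letters. The windows of Slc3a2, Slc7a1, Slc38a2, Slc6a9 and Slc43a1 held no match to these letters. That of Slc3a2 (chromosome 19, 8713848 to 8714147) lay inside the gene, whose 5′ end on the minus strand is at 8723369. No window was at hand for Slc7a3, Slc7a5 and Slc1a5. Sequence outside the windows was not searched, so a gene without a match here may still hold the element. The antioxidant response element core TGACNNNGC, the kind bound by NRF2, which is known to act on Slc7a11, occurred in windows of Slc7a1, Slc38a2, Slc6a9 and Slc43a1 and in 12.4% of all windows (14% of genes). The Slc7a11 window was also the poorest in CpG dinucleotides of the 10, with 4, against 41 in that of Slc38a2 and a median of 7 over all windows. Such matches describe letters only.

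Slc7a1 (ENSMUSG00000041313.14; chromosome 5, 148327410 to 148399904) encodes CAT1, the widely expressed arginine and lysine carrier. Its values were 112, 129.7 and 125 CPM in Mock, 401, 389 and 377 in Auxin, then 130.4, 139.6 and 143 in Reintroduction. The 3 Auxin libraries stood far above the rest, and the lowest Reintroduction library lay just above the highest Mock library. It rose in Auxin by 1.67 (SE 0.07, adjusted p = 2.27e-09), or by 1.25 with length and GC trends removed, and changed by -1.50 after washout (SE 0.07, adjusted p = 2.14e-08). Against Mock, Reintroduction differed by 0.17 (SE 0.06, adjusted p = 0.0343), and this call had no stable direction. With length and GC trends removed the gene was called lower, at -0.14. The call was lost without Mock replicate 1 (0.09), without Mock replicate 3 (0.16), without Reintroduction replicate 2 (0.16) and without Reintroduction replicate 3 (0.12).

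Slc7a3 (ENSMUSG00000031297.14; chromosome X, 101079210 to 101086020) encodes CAT3, a cationic amino acid carrier. It had 119, 110.4 and 115 CPM in Mock, 141, 153 and 141 in Auxin, then 83.8, 82.9 and 85.3 in Reintroduction, again without overlap. The rise in Auxin was the smallest of the 9, at 0.34 (SE 0.05, adjusted p = 1.30e-04), and it was 0.55 when libraries were scaled by total counts alone, a scaling that also moved the median of all genes to 0.26. In that comparison 60.6% of all genes tested had a lower value than Slc7a3, so its rise was near the middle of all genes. The change after washout was -0.79 (SE 0.05, adjusted p = 5.56e-07), and Reintroduction ended below Mock at -0.45 (SE 0.05, adjusted p = 1.99e-05).

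Slc1a4 (ENSMUSG00000020142.12; chromosome 11, 20302180 to 20332713), which encodes the alanine, serine and cysteine exchanger ASCT1, had the largest rise in Auxin after Slc6a9. Mock libraries had 5.53, 5.46 and 5.54 CPM, Auxin libraries 41.6, 47.4 and 42.6, and Reintroduction libraries 2.79, 2.38 and 2.79. Auxin stood 7.96-fold above Mock (log2 fold change 2.99, SE 0.08, adjusted p = 1.62e-10), and 97.4% of genes tested had a lower value. After 4.5 h of washout the level in Reintroduction was 16.4-fold lower than in Auxin (log2 fold change -4.03, SE 0.08, edgeR adjusted p = 1.61e-10). This value was below those of 20802 of the 20838 genes. Against Mock, Reintroduction stood lower, at -1.04 (SE 0.08, edgeR adjusted p = 9.99e-07).

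Slc1a5 (ENSMUSG00000001918.17; chromosome 7, 16781340 to 16798274) encodes ASCT2, the glutamine exchanger. It had 62.8, 58.6 and 64.1 CPM in Mock, 173, 184 and 176 in Auxin, then 58.9, 59 and 61.2 in Reintroduction. Auxin lay apart from both other groups, which overlapped each other. Its rise in Auxin was 1.53 (SE 0.05, adjusted p = 9.94e-10) and its change after washout -1.58 (SE 0.05, adjusted p = 3.70e-09). Reintroduction differed from Mock by -0.05 (SE 0.05, adjusted p = 0.414). The sign of this small difference turned with total counts (0.08) and with length and GC trends removed (0.14, called higher).

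Slc38a2 (ENSMUSG00000022462.6; chromosome 15, 96687394 to 96699698) encodes SNAT2, which takes up alanine, glutamine and other neutral amino acids with sodium. The level was 241, 253 and 256 CPM in Mock, 365, 309 and 365 in Auxin, then 233, 236 and 226 in Reintroduction. As with Slc7a11, Auxin replicate 2 was the lowest Auxin library. The rise was 0.47 (SE 0.07, adjusted p = 6.77e-05) and the change after washout -0.58 (SE 0.07, adjusted p = 3.46e-05). The difference between Reintroduction and Mock, -0.11 (SE 0.07), did not pass (adjusted p = 0.173), although the ranges did not overlap, and with length and GC trends removed it was -0.22 and called lower.

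Slc6a9 (ENSMUSG00000028542.17; chromosome 4, 117834506 to 117875198), the glycine transporter GlyT1, rose most. It had 0.903, 0.797 and 1.02 CPM in Mock, from 93, 66 and 73 counts, then 20.7, 20.1 and 20.5 CPM in Auxin and 1.47, 1.65 and 2.01 in Reintroduction. The groups did not overlap, and the Auxin libraries differed little among themselves. This was a 22.6-fold rise (log2 fold change 4.50, SE 0.12, adjusted p = 2.09e-10), exceeded by 116 of the genes tested, and an 11.9-fold drop after washout (log2 fold change -3.57, SE 0.11, adjusted p = 2.63e-09). Unlike most of the set, it stayed above Mock, at 0.92 (SE 0.14, adjusted p = 1.05e-04). Slc6a9 shares exon sequence with B4galt2, Ccdc24 and Gm17114, and no strand was used, so its counts come from the unshared parts and may hold reads of these neighbours.

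Slc43a1 (ENSMUSG00000027075.16; chromosome 2, 84838850 to 84863594) encodes LAT3, which carries leucine and other large neutral amino acids without coupling to sodium. Its level was low throughout: 3.44, 3.14 and 3.18 CPM in Mock, 3.57, 2.97 and 2.59 in Auxin, then 2.61, 2.12 and 2.49 in Reintroduction. Auxin overlapped both other groups. Auxin differed from Mock by -0.09 (SE 0.13, adjusted p = 0.532). Reintroduction differed from Auxin by -0.33 (SE 0.14, adjusted p = 0.0618), which did not pass but was called lower by 5 of 17 alternatives, among them those without Auxin replicate 2 (-0.36) and without Auxin replicate 3 (-0.43). Reintroduction was lower than Mock, at -0.43 (SE 0.13, adjusted p = 0.0153), a call lost without Reintroduction replicate 2 (-0.35) and with total counts (-0.29).

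**Figure D2:**
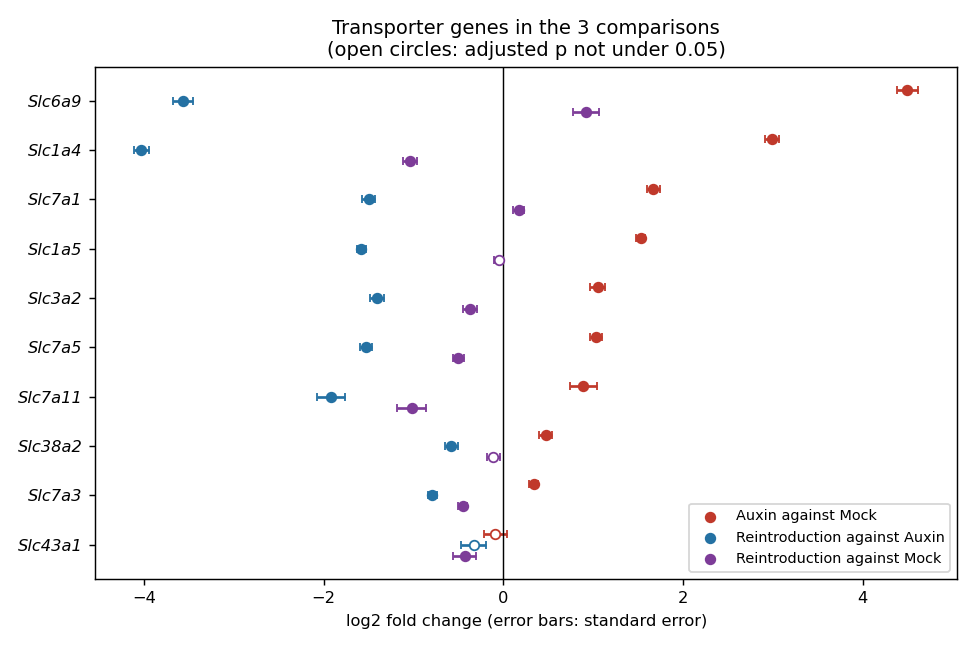
Log2 fold changes (points) with standard errors (bars) of the 10 genes in the 3 comparisons, from the fit over all 9 libraries, with open circles where the adjusted p was not under 0.05. Auxin against Mock runs from -0.09 for Slc43a1 to 4.50 for Slc6a9, and Reintroduction against Auxin from -4.03 for Slc1a4 to -0.33 for Slc43a1.

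**Figure D3:**
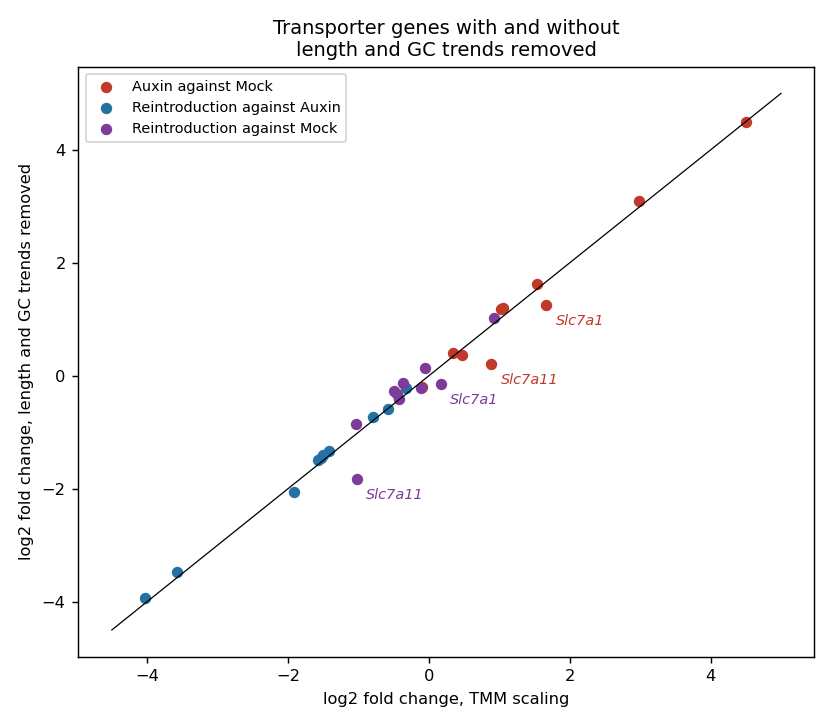
Log2 fold changes of the 10 genes with TMM scaling (horizontal axis) against those with length and GC trends removed from each library (vertical axis), coloured by comparison, with the line of equal values. Slc7a11 lies farthest from the line in both comparisons with Mock, at 0.89 against 0.21 and at -1.02 against -1.83.

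Levels were compared between genes per length, as RPKM, the CPM divided by the exon length in kilobases. In Mock the order was Slc7a5 (71.8 ± 2.83 RPKM, SD, n = 3), Slc3a2 (56.6 ± 3.44), Slc38a2 (54 ± 1.64), Slc7a3 (30.3 ± 1.1), Slc1a5 (14.8 ± 0.697), Slc7a1 (10.6 ± 0.781), Slc1a4 (1.4 ± 0.0117), Slc7a11 (1.17 ± 0.0331), Slc43a1 (0.569 ± 0.0283) and Slc6a9 (0.176 ± 0.0218). Of neighbours in this order, Slc3a2 and Slc38a2 overlapped between libraries and the others did not. In Auxin no neighbours overlapped. Slc7a5 (146 ± 11.7 RPKM) and Slc3a2 (117 ± 11.9) again led, Slc1a5 (42.7 ± 1.36) stood above Slc7a3 (38.3 ± 1.89), and Slc6a9 (3.97 ± 0.0616) stood above Slc7a11 (2.18 ± 0.579) and Slc43a1 (0.532 ± 0.0872). In Reintroduction the order was that of Mock except that Slc38a2 (50.1 ± 1.1 RPKM) stood between Slc7a5 (50.6 ± 1.73), which it overlapped, and Slc3a2 (43.9 ± 2.27). Slc43a1 (0.421 ± 0.045) and Slc6a9 (0.332 ± 0.0536) overlapped there at the bottom.

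The heavy chain was set beside the light chains known to bind it, which were chosen after their values were seen. Those tested were Slc7a5, Slc7a6 (y+LAT2), Slc7a7 (y+LAT1), Slc7a8 (LAT2) and Slc7a11. The ratio of Slc3a2 to the sum of these 5, in RPKM, was 0.501 to 0.549 in Mock, 0.614 to 0.661 in Auxin and 0.449 to 0.503 in Reintroduction, so Auxin stood apart and the other groups met. With 3 libraries against 3, an exact two-sided permutation test cannot go below p = 0.1, and these ratios are given as descriptions. Slc7a5 made up 65.5% to 68% of the light chain sum in Mock, 78.8% to 80.6% in Auxin and 54.2% to 55.1% in Reintroduction. Slc7a6 did not pass in Auxin against Mock (log2 fold change 0.09, adjusted p = 0.16) and was higher in Reintroduction than in Auxin (0.40, adjusted p = 9.94e-05). Slc7a7, which shares exon sequence with Oxa1l, was lower in each group than in the one before, by -0.60 in Auxin against Mock and -0.60 in Reintroduction against Auxin. The paralogue pairs shifted as well: the ratio of Slc1a5 to Slc1a4 was 10.1 to 10.9 in Mock, 3.66 to 3.92 in Auxin and 19.9 to 23.3 in Reintroduction. The ratio of Slc7a1 to Slc7a3 was 0.311 to 0.386 in Mock, 0.833 to 0.934 in Auxin and 0.511 to 0.552 in Reintroduction. The length trend of the libraries was not removed from these ratios, and the exons of Slc7a1 sum to 11530 bp, against 3784 bp for Slc7a3. As given above, removing length and GC trends lessened the rise of Slc7a1 in Auxin and turned its difference between Reintroduction and Mock.

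**Figure D4:**
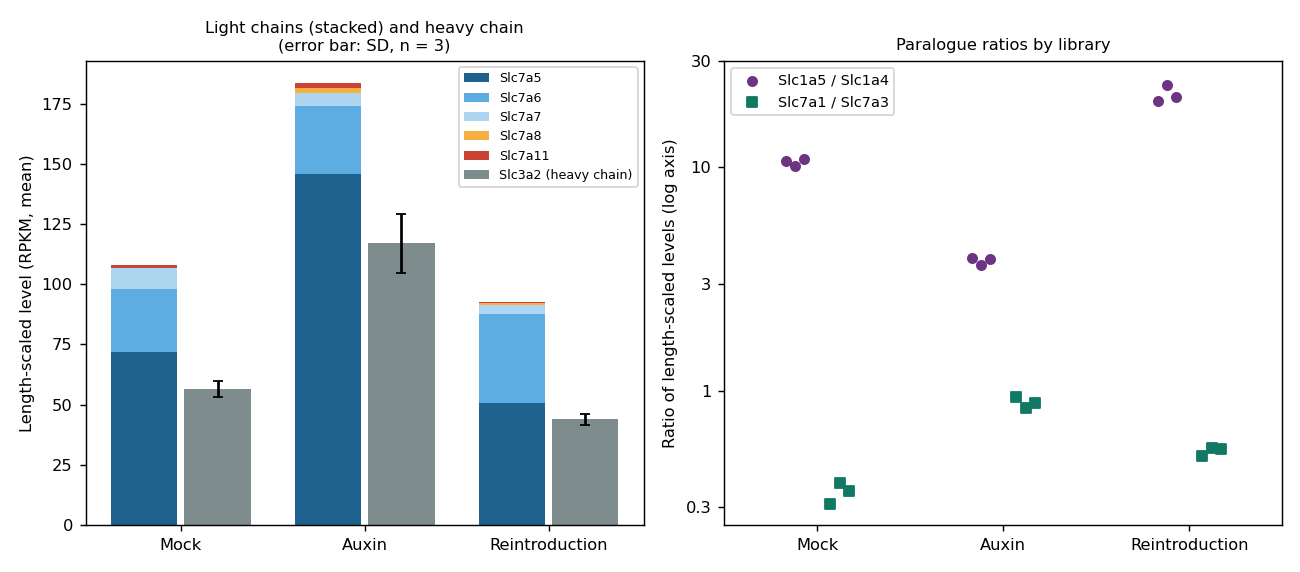
Left, length-scaled levels (RPKM) of the 5 light chains, stacked as means of 3 libraries, beside that of the heavy chain Slc3a2 (mean ± SD, n = 3) in each group. Right, ratios of length-scaled levels for 2 paralogue pairs in each library on a log axis, where Slc1a5 to Slc1a4 is lowest in Auxin (3.66 to 3.92) and Slc7a1 to Slc7a3 is highest there (0.833 to 0.934). The length trend of the libraries was not removed from these values.

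Other genes of the amino acid transporter families moved in both directions. Of 43 listed, 30 had enough counts to be tested. Auxin against Mock gave 16 higher and 9 lower calls among them, beside 38.4% and 34.8% of all genes tested, and their median log2 fold change was 0.47. In Reintroduction against Auxin 7 were higher and 14 lower (median -0.37), beside 25.5% of all genes in each direction. In Reintroduction against Mock 14 were higher and 6 lower (median 0.26), beside 34.7% and 33.4%. Among the 216 other Slc genes tested, the medians in these comparisons were 0.30, -0.20 and 0.08. No test of the difference between these lists was made.

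**Figure D5:**
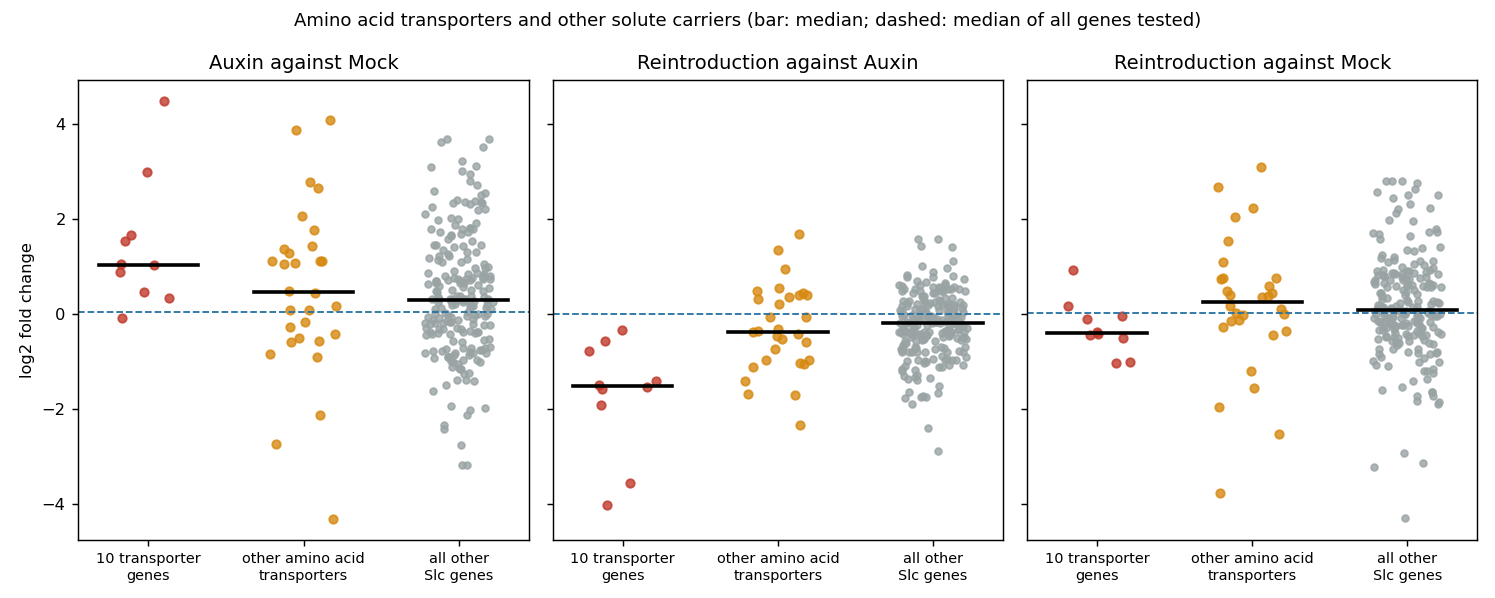
Log2 fold changes of the 10 transporter genes, the 30 tested other amino acid transporters and the 216 tested other Slc genes in the 3 comparisons, with a point per gene, a bar at each list's median and a dashed line at the median of all genes tested. The 10 genes have medians of 1.04, -1.51 and -0.40, against 0.47, -0.37 and 0.26 for the other amino acid transporters.

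Large rises in Auxin outside the 10 genes were those of Slc7a8, a light chain of 4F2hc, from 0.439 to 7.49 CPM (log2 fold change 4.10, SE 0.12), and Slc1a1, the glutamate and cysteine carrier EAAC1, from 0.42 to 6.29 CPM (3.89, SE 0.16). Slc1a1 shares exon sequence with another gene. Slc36a4, a proton-assisted family member, rose from 1.81 to 11.3 CPM (2.65, SE 0.10). Of the 9 called lower, the 3 with the largest changes had low levels: Slc38a5 went from 1.09 to 0.0538 CPM (log2 fold change -4.32, SE 0.33), Slc38a3 from 1.11 to 0.167 (-2.75, SE 0.33) and the glycine carrier Slc6a5 from 2.56 to 0.583 (-2.14, SE 0.22). The Slc6a5 change was opposite in sign to that of the other glycine carrier, Slc6a9. After washout Slc1a1 (-2.34), Slc38a7 (-1.71, to 40.1 CPM), Slc38a8 (-1.68), Slc7a8 (-1.42) and Slc36a1 (-1.11, to 16.2 CPM) fell on the log2 scale, and Slc6a5 rose by 1.69. Compared with Mock, Slc7a8 (2.67), Slc36a4 (2.23) and Slc1a1 (1.55) were still higher in Reintroduction, whereas Slc38a5 (-3.78), Slc38a3 (-2.54) and Slc38a8 (-1.96) were lower. All these changes were called, with edgeR adjusted p of at most 1.10e-04 (Slc6a5 after washout). Slc36a4 changed by -0.42 after washout (adjusted p = 0.00258), while Slc1a4 and Slc6a9, which rose by larger amounts in Auxin, changed by -4.03 and -3.57.

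Genes with the most similar pattern were sought among 15181 genes whose mean reached 1 CPM, by the root mean square difference of centred log2 values over the 9 libraries. For Slc7a5 the nearest of all was its heavy chain Slc3a2 (0.073), followed by Bri3 (0.077), and for Slc3a2 they were Bri3 (0.048) and Avpi1 (0.048). Slc1a4 was nearest to Ddit3 (0.266), which encodes the stress response factor CHOP, and to the alanine aminotransferase gene Gpt2 (0.318). Slc6a9 was nearest to Cebpb (0.112) and Ubap1l (0.142), and Cebpb encodes a partner of ATF4. Slc7a1 was nearest to Sft2d2 (0.075) and Klf5 (0.078), Slc1a5 to Tmem144 (0.059) and the lysosomal channel gene Mcoln1 (0.062), and Slc7a3 to Exog (0.039) and the proton pump subunit gene Atp6v1c1 (0.040). The nearest genes were Clcn6 (0.036) and Pdzd7 (0.046) for Slc38a2, Zmat4 (0.177) and Spata31d1b (0.197) for Slc7a11, and Cyp39a1 (0.068) and Padi3 (0.075) for Slc43a1. A small difference is easier to reach for a gene that varies little: the 10 genes' own root mean square deviation from their mean ran from 0.20 for Slc43a1 to 1.71 for Slc6a9. Of these neighbours, Bri3, Pdzd7, Ddit3 and Cebpb share exon sequence with other genes.

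Of 15 genes of the integrated stress response, 14 were called higher in Auxin than in Mock and 12 lower in Reintroduction than in Auxin, beside 38.4% and 25.5% of all genes tested. Reintroduction against Mock called 8 of them higher and 7 lower, beside 34.7% and 33.4% of all genes. Atf4 went from 241 CPM in Mock to 597 in Auxin and 171 in Reintroduction, Ddit3 from 6.41 to 69.9 and 5.07, and the asparagine synthetase gene Asns from 489.7 to 1081 and 659. Of 19 genes through which mTORC1 senses amino acids, Auxin against Mock called 8 higher and 11 lower, beside 38.4% and 34.8% of all genes. Reintroduction against Auxin called 3 higher and 7 lower, beside 25.5% of all genes in each direction. Reintroduction against Mock called 5 higher and 11 lower, beside 34.7% and 33.4%. Sesn2, the leucine sensor, is counted in this list and in that of the integrated stress response. It rose in Auxin from 78.6 to 231 CPM and then fell to 41.1 CPM, below Mock (-0.94). Castor1, the arginine sensor, went the other way, from 17 to 4.88 CPM in Auxin and then up to 9.21 CPM, still below Mock (-0.89). Related genes of the list moved in both directions in Auxin against Mock: Castor2 (0.59) and Sesn3 (1.86) were called higher and Sesn1 (-0.19) lower.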

How the data were processed

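Polyadenylated RNA of 9 libraries (3 groups of 3) was analysed from raw read counts per gene deposited by the authors, with no normalization. Per the file headers, featureCounts 2.0.6 assigned paired reads to the exons of each gene of an mm10 annotation, with no strand setting and no option for reads shared between genes. Mates were counted apart: even counts of 2 to 10 made up 56% to 58.8% of the genes with 1 to 10 counts. Trim Galore 0.6.10, FastQC 0.12.1, Bowtie2 2.5.3 and SAMtools 1.20 are named in the submitters' processing notes, with no role given.

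The 10 genes and all lists were chosen with earlier results of these data known. Symbols were matched by gene identifier (48058 of 48440 genes). Genes passing filterByExpr (20838) were scaled with TMM factors and fitted over all 9 libraries with group as the only term (edgeR 4.0.16, R 4.3.3, quasi-likelihood test, two-sided), with p-values adjusted by Benjamini-Hochberg over all genes and called under 0.05. Standard errors derive from the F statistic. The common biological coefficient of variation was 9.15%. The fit was tested on simulated data. Promoter windows of chromosome 18 were left out. P-values set differences between groups against the spread between libraries within groups, and the labels do not say how many clones these libraries came from.

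Named were the 10 genes and the other transporters with the largest called changes (at most 6 per comparison, at least 2-fold and 1 CPM). From the stress and sensing lists Atf4, Ddit3, Asns, Sesn2 and Castor1 were named, and these lists too were chosen with earlier results known. The 2 genes nearest in pattern to each of the 10 were named as well. The pattern used log2 of CPM plus 0.5. Length and GC trends (GENCODE M21 transcripts) were removed with splines of 4 degrees of freedom per library. Other alternatives were DESeq2 1.42.0 size factors and its Wald test, total counts, other filters, halved counts, 2-group fits, the replicate number as a block, a 2-fold requirement and leaving out each library.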

Additional observations from a re-analysis of the deposited data

How the results depend on the processing

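Each of the 30 log2 fold changes of the 10 genes was recomputed under 17 alternatives, and 484 of the 510 values kept their direction and their side of the threshold. For 24 of the 30 all 17 did, including all 9 called genes in Auxin against Mock and in Reintroduction against Auxin. Direction turned for Slc43a1 in Auxin against Mock with total counts (0.12) and without Auxin replicate 3 (0.01, the range over libraries left out being -0.24 to 0.01), and in Reintroduction against Mock for Slc38a2 with total counts (0.02) and for Slc1a5 with total counts (0.08), with length and GC trends removed (0.14) and with the replicate block added to these (0.14). Slc7a1 turned there with the length trend removed (-0.31), with both trends (-0.14) and with the replicate block added (-0.14). The causes were not tested.

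Counts of calls moved by over 1.5 times as follows. Requiring a 2-fold change left 6625, 2289 and 4664 genes in Auxin against Mock, Reintroduction against Auxin and Reintroduction against Mock. It left 3 other transporters lower in the first, 8 (2 higher and 6 lower) in the second, and 11 (6 higher) in the third, where 2 of the 10 genes remained called, 2 lower and 0 higher, beside 8 at an adjusted p under 0.05 alone (edgeR). The number of the 10 genes higher in Reintroduction than in Mock, 2, was 1 with DESeq2 size factors, the DESeq2 Wald test, the replicate block and the length trend removed, and it ranged from 1 to 2 over fits that left out a library. The 6 other transporters lower there became 3 with the filter of at least 1 CPM, 11 with the length trend removed and 10 with both trends removed, also with the replicate block. Scaling by total counts moved the share of called genes that were higher from 52.4% to 63.3% in Auxin against Mock and from 50.0% to 40.1% in Reintroduction against Auxin.

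Replicate numbers share only a number: deviations of same-numbered libraries from their group means correlated between -0.172 and 0.055, and those of others between -0.177 and 0.239. With the replicate block 14808, 9829 and 13639 genes were called in place of 15257, 10613 and 14191, and of the 10 genes 9, 9 and 7. Depth limits Slc6a9 in Mock, with 66 to 93 counts, and Slc43a1, with 95 to 354.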
